A study of Mus musculus with 55 samples.

Results

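RNA was measured in whole livers of mice in which hepatocytes had lost the RING domain of *Rnf43* and *Znrf3*, and 10 genes of the surface machinery for WNT are described here: the E3 ligases *Rnf43* and *Znrf3*, the R-spondin receptors *Lgr4* and *Lgr5*, the Frizzled receptors *Fzd4*, *Fzd5*, *Fzd7* and *Fzd8*, and the co-receptors *Lrp5* and *Lrp6*. They were chosen by name, by a rule that uses no measured value but with earlier results of these data known, from 34490 gene symbols that both sequencing batches list, and all 10 passed the filters on low values in each comparison. *Znrf3* passed the test between the genotypes at 4 of 8 time points, *Rnf43* at 2, and *Lgr5* and *Lgr4* at 1 each. Depending on the time point, 0.226% to 15.2% of all genes passed this test. The mean RNA level of *Lgr5*, *Rnf43* and *Znrf3* was higher in mutant than in control livers at every time point, damaged or not. *Lgr4* RNA tended the other way, and no Frizzled passed the test between the genotypes at any time point.

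The mutant mice, named R&Z del, carried floxed alleles of both genes that were recombined in hepatocytes of adult C57BL/6 mice, and the controls, named R&Z flox, carried the same floxed alleles without recombination. Livers without damage were taken 1, 3 and 7 months after deletion (1M, 3M and 7M). Further livers were taken 7 and 21 days after partial hepatectomy (PHx, the surgical removal of part of the liver) and 4, 50 and 170 days into recovery from chronic damage (CD) with CCl4, a toxin that kills pericentral hepatocytes. Of 53 libraries with counts, 48 had a group: at 1M 4 R&Z del and 4 R&Z flox, at 3M 2 and 5, at 7M 5 and 5, at both times after PHx 3 and 3, at CD 4 days 2 and 2, at CD 50 days 2 and 1, and at CD 170 days 2 and 2.

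Recombination was driven in different ways, and the drivers limit the groups as models. In batch 1, which holds all CD libraries and 7 of the undamaged ones, tamoxifen activated Cre from the *Alb* locus (Alb CreERT2) and controls received sunflower oil alone. In batch 2 the 1M, 3M and PHx mice received an AAV8 virus with Cre under the hepatocyte promoter TBG or a Null virus, and the 7M mice received tamoxifen. Both drivers are meant for hepatocytes, and whether cholangiocytes, endothelial cells, macrophages and stellate cells kept both genes was not measured here. The sources differ on whether the CD controls received CCl4 or its corn oil vehicle, and their labels list chronic damage. At 3M 1 of the 2 R&Z del mice was female, and at PHx 21 days 1 of the 3, replicate 3, whereas their controls were male, and at 7M R&Z flox replicate 5 was the only female. At 1M each genotype had 2 females and 2 males, and the PHx 7-day and CD mice were listed as male. All sexes given here are those of the study's list, and the tests used them. At PHx 7 days *Xist*, an RNA of female cells, was lower in R&Z del than in R&Z flox by 8.74 ± 2.16 (SE) on the log2 scale. The Y-linked *Ddx3y*, *Eif2s3y*, *Kdm5d* and *Uty* differed by -0.752 to 0.675 there. Whether each listed sex is right was not tested.

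WNT proteins bind a Frizzled together with LRP5 or LRP6, which keeps β-catenin from being destroyed and turns on TCF target genes. RNF43 and ZNRF3 tag Frizzleds with ubiquitin, so that they leave the cell surface, and are themselves transcribed as feedback targets of the pathway. R-spondins bridge LGR4 or LGR5 to these ligases and clear them away, which leaves more receptor at the surface, and in the liver this circuit is strongest around the central vein, where *Lgr5* is a known target.

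The sequences that follow are the stretches which the study's own primers amplify, shown because they place the deletion against the counts. A count covers every exon of a gene, whereas the study states that its *Rnf43* and *Znrf3* primers lie in the deleted exons. The primers were located in the GENCODE transcripts of build NCBIM37 and stand in capitals, the reverse one as its complement. The *Rnf43* stretch of 212 bases is coding sequence of exons 6, 7 and 8 of 9, on the plus strand of chromosome 11 (chr11:87543023-87543063, chr11:87543634-87543736 and chr11:87544529-87544596), and makes up 4.67% of the exon bases counted. The *Znrf3* stretch of 219 bases is coding sequence of exons 7 and 8 of 9, on the minus strand (chr11:5183341-5183424 and chr11:5182374-5182508), and makes up 2.86%. The *Lgr5* stretch of 136 bases comes from exons 1, 2 and 3 of 18 on the minus strand of chromosome 10 (chr10:115024338-115024366, chr10:114957662-114957733 and chr10:114939460-114939494). The mean RNA level of this receptor was higher in R&Z del than in R&Z flox livers at every time point.
Rnf43: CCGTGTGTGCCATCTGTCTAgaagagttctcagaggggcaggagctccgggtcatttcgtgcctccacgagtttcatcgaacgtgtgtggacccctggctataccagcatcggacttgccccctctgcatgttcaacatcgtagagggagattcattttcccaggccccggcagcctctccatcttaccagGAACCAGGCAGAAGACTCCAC
Znrf3: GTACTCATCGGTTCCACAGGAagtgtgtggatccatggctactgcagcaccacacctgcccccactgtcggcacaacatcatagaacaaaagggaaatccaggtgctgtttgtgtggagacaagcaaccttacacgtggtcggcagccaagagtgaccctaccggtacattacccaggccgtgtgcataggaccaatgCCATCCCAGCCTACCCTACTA
Lgr5: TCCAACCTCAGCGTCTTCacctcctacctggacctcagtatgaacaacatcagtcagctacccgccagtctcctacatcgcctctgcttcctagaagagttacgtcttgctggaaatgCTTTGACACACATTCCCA

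In mm10, the build of the counts, *Rnf43* spans chr11:87663087-87735539 on the plus strand and *Znrf3* chr11:5276329-5444847 on the minus strand. *Lgr4* spans chr2:109917647-110014257 and *Lgr5* chr10:115450314-115587780. Since the counts do not tell which exons were read, they cannot check the deletion, and the RNA of both targeted genes stood above the control in the R&Z del libraries of every time point on average.

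Total counts ran from 11721687 to 38692089 per library with a median of 22982428, so that 3 counts equal 0.078 to 0.256 CPM, the counts of a gene in each 1000000 counts of its library. The liver label held: the summed CPM of 10 hepatocyte markers lay between 61610 and 149900 in every library. Of the members, *Fzd5* alone was at 0 counts in any library (4 of 53), and *Lgr5* was down to 3 counts in 1. In all, 4 libraries stood apart from their batch with a median correlation under 0.85 to the others, namely R&Z flox 3M replicate 5, R&Z del 7M replicate 5, R&Z flox PHx 7 days replicate 3 and R&Z del PHx 21 days replicate 2. Values with and without them are given where they matter. Nothing in the labels says that replicates of a group came from separate litters or days.

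Levels can be compared between genes only per length, here as CPM per kilobase of exon. In R&Z flox livers of batch 1 *Lgr4* was the most abundant member at 3.70 ± 0.45 CPM per kilobase (SD, n = 9), above the next gene in 8 of 9 libraries, and in batch 2 it led at 8.08 ± 4.13 (SD, n = 16), above the next in 11 of 16. *Rnf43*, *Lrp5*, *Fzd7* and *Lrp6* followed in batch 1 between 2.31 and 2.04 CPM per kilobase, a range within their own spread. *Lgr5* at 0.636 ± 0.269 and *Fzd5* at 0.275 ± 0.066 stood last, and *Lgr5* exceeded *Fzd5* in 9 of 9 libraries.

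In R&Z del livers the order was another one. *Rnf43* came first, at 6.15 ± 1.32 CPM per kilobase in batch 1 (SD, n = 9) and 10.4 ± 2.66 in batch 2 (SD, n = 14), above the next gene in 9 of 9 and 9 of 14 libraries. In batch 2 *Znrf3* at 9.57 ± 4.495 and *Lgr5* at 7.61 ± 3.53 came next, and *Lgr4* stood sixth at 4.30 ± 1.73 CPM per kilobase. *Fzd5* was last in both batches, at 0.280 ± 0.092 and 0.165 ± 0.255.

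**Figure D1:**
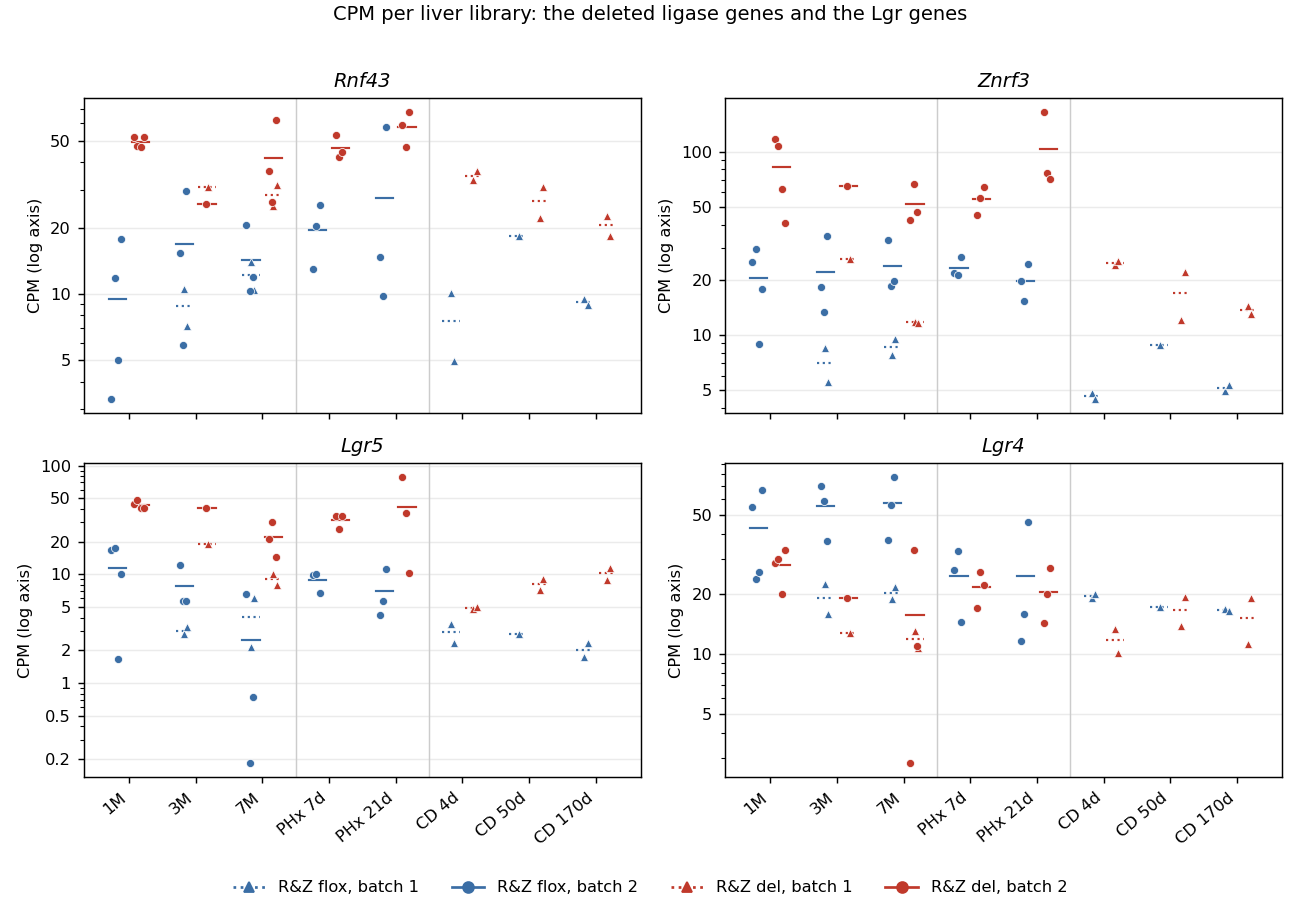
CPM of *Rnf43*, *Znrf3*, *Lgr5* and *Lgr4* in every library by time point, on a log axis, with R&Z flox in blue and R&Z del in red, batch 1 as triangles and batch 2 as circles, and bars for the mean of each batch (dotted for batch 1). The 4 R&Z del libraries at 1M sit between 46.9 and 52.2 CPM for *Rnf43*, all above the R&Z flox libraries, whereas for *Lgr4* the genotypes overlap at every time point except CD 4 days.

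*Rnf43* encodes the ligase whose own message was counted in every library. At 1M it read 3.34, 5.004, 11.8 and 17.9 CPM in R&Z flox and 46.9, 47.4, 51.8 and 52.2 CPM in R&Z del. At 3M it read 7.13 and 10.5 CPM (batch 1) and 5.89, 15.5 and 29.4 CPM (batch 2) in R&Z flox, against 30.7 and 25.7 CPM in the R&Z del library of each batch. The genotypes were thus apart at 1M, whereas at 3M the R&Z flox library of 29.4 CPM, replicate 5, which stands apart from its batch, reached above a mutant one. At 7M the values were 10.4 and 14.01 CPM (batch 1) and 10.3, 12.0 and 20.7 CPM (batch 2) in R&Z flox, and 25.2 and 31.5 CPM (batch 1) and 26.4, 36.5 and 62.3 CPM (batch 2) in R&Z del, without overlap. At 1M and 7M 3.81% and 0.768% of all genes were likewise higher in each mutant than in each control.

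By edgeR's quasi-likelihood test, with calls made at a log2 fold change over 1 or under -1 if the Benjamini-Hochberg adjusted p also lay below 0.1, *Rnf43* rose at 1M by 2.22 ± 0.49 (SE) on the log2 scale (adjusted p = 0.0471). It was one of 2 members called there, both higher, where 0.218% of all 12848 genes were called higher and 0.436% in either direction. The call was lost in 7 of 17 other settings, among them batch 2 alone (adjusted p = 0.16) and each of 5 single libraries left out, R&Z del replicates 1, 2 and 4 and R&Z flox replicates 1 and 3 (adjusted p up to 0.171). At 3M the log2 fold change was 1.24 ± 0.58 (adjusted p = 0.766) and at 7M 1.51 ± 0.43 (adjusted p = 0.221), or 1.18 without R&Z del replicate 5 at 7M, which holds the 62.3 CPM. No difference of its effect between 1M, 3M and 7M passed the test of the interaction (adjusted p of 0.96 to 1).

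After PHx the mutant values stayed in the same range while those of single controls were higher. At 7 days *Rnf43* read 13.1, 20.4 and 25.6 CPM in R&Z flox and 42.2, 44.4 and 53.0 CPM in R&Z del. These values do not overlap, and 6.8% of all genes were likewise higher in each mutant than in each control. By the quasi-likelihood test *Rnf43* had a log2 fold change of 1.15 (adjusted p = 0.825). At 21 days it read 9.83, 14.8 and 58.0 CPM in R&Z flox and 47.0, 59.0 and 67.3 CPM in R&Z del. The control of 58.0 CPM, replicate 3, lies among the mutants, and the log2 fold change of 1.02 ± 0.60 (adjusted p = 0.655) became 2.20 (adjusted p = 0.215) without it.

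During CD *Rnf43* was higher in each R&Z del library than in each control at 4, 50 and 170 days, as were 65.6%, 50.5% and 36.8% of all genes. It read 4.98 and 10.1 CPM in R&Z flox and 33.0 and 36.4 CPM in R&Z del at 4 days, 18.5 CPM against 22.3 and 30.9 CPM at 50 days, and 8.93 and 9.54 CPM against 18.3 and 22.8 CPM at 170 days. At 4 days it rose by 1.71 ± 0.30 (SE, adjusted p = 0.0074), one of 2 members called higher and 1 called lower, where 10.3% and 4.95% of 11358 genes were called in these directions and 15.2% in either. At 50 and 170 days the log2 fold changes were 0.26 ± 0.36 (adjusted p = 0.697) and 0.95 ± 0.29 (adjusted p = 0.318). With 1 control library at 50 days, the test there assumes that it varies as the other groups do.

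*Znrf3*, the other ligase, passed the test at more time points than *Rnf43*. At 1M it read 8.93, 17.8, 25.2 and 29.5 CPM in R&Z flox and 40.7, 62.8, 108 and 117 CPM in R&Z del, without overlap, as for 3.81% of all genes. It rose by 1.82 ± 0.32 (SE, adjusted p = 0.00434), a call kept in 17 of 18 settings and lost with male mice alone. At 3M R&Z flox read 5.54 and 8.55 CPM (batch 1) and 13.3, 18.3 and 34.6 CPM (batch 2), and R&Z del 25.9 CPM (batch 1) and 65.1 CPM (batch 2). At 7M R&Z flox read 7.74 and 9.52 CPM (batch 1) and 18.6, 19.7 and 32.9 CPM (batch 2), and R&Z del 11.6 and 11.8 CPM (batch 1) and 42.2, 46.8 and 66.9 CPM (batch 2). The genotypes overlap over both batches at 3M and 7M but not within either batch, since *Znrf3* was lower throughout batch 1. The share of all genes that separate within a batch was not counted, and at 3M each batch held 1 mutant. Its log2 fold changes were 1.31 ± 0.37 at 3M (adjusted p = 0.251) and 1.10 ± 0.28 at 7M (adjusted p = 0.115).

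After PHx *Znrf3* was higher in each mutant than in each control at 7 and 21 days, as were 6.80% and 7.41% of all genes. It read 21.4, 21.8 and 26.8 CPM in R&Z flox and 45.3, 55.9 and 64.3 CPM in R&Z del at 7 days (log2 fold change 1.15 ± 0.30, adjusted p = 0.188), and 15.3, 19.7 and 24.4 CPM against 70.6, 76.8 and 164 CPM at 21 days. At 21 days it rose by 1.80 ± 0.31 (SE, adjusted p = 0.00891) and was called in 15 of 15 settings, at an adjusted p of 0.0409 without the R&Z del replicate 2 that stands apart and 0.0197 without the female replicate 3, which holds the 164 CPM. It was the only member called there, where 0.149% of 12773 genes were called higher and 0.329% in either direction. By the study's own threshold for PHx, which takes the unadjusted p below 0.05 and keeps the limit on the fold change, *Znrf3* and *Lgr5* were called at both times, against 3.99% of genes at 7 days and 6.56% at 21 days.

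In damaged livers *Znrf3* read 4.503 and 4.86 CPM in R&Z flox and 24.0 and 25.3 CPM in R&Z del at 4 days, 8.88 CPM against 12.1 and 21.98 CPM at 50 days, and 4.95 and 5.33 CPM against 13.03 and 14.5 CPM at 170 days. The genotypes do not overlap at any of these times, but 65.6%, 50.5% and 36.8% of all genes were also higher in each mutant than in each control. *Znrf3* rose at 4 days by 1.91 ± 0.22 (SE, adjusted p = 0.00155) in 11 of 11 settings. In that comparison 10.3% of genes were called higher and 15.2% in either direction. At 170 days it rose by 1.22 ± 0.21 (adjusted p = 0.0671), in a comparison with 0.414% of genes called higher and 0.625% in either direction. That call was kept in 6 of 13 settings and lost when R&Z del replicate 1 or 2 or R&Z flox replicate 1 was left out (adjusted p of 0.285, 0.305 and 0.226). At 50 days its log2 fold change was 0.65 ± 0.26 (adjusted p = 0.183).

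*Lgr5*, receptor for R-spondins and itself a WNT target of pericentral hepatocytes, separated the genotypes at every undamaged time point. At 1M it read 1.67, 10.02, 16.9 and 17.6 CPM in R&Z flox and 41.0, 41.1, 44.8 and 48.1 CPM in R&Z del. At 3M R&Z flox read 2.82 and 3.26 CPM (batch 1) and 5.63, 5.68 and 12.3 CPM (batch 2), and R&Z del 19.1 CPM (batch 1) and 40.6 CPM (batch 2). At 7M R&Z flox read 2.14 and 6.03 CPM (batch 1) and 0.184, 0.744 and 6.53 CPM (batch 2), and R&Z del 7.90 and 10.1 CPM (batch 1) and 14.5, 21.1 and 30 CPM (batch 2). Every mutant library exceeded every control at 1M, 3M and 7M, which was true of 3, 1 and 2 of the 10 members respectively. Of all 14054 genes compared in this way, 3.81%, 7.26% and 0.768% were higher in each mutant than in each control at these times.

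The fitted differences of *Lgr5* were of like size but carried a large error. They were 1.99 ± 0.71 at 1M (SE, adjusted p = 0.354), 1.99 ± 0.77 at 3M (adjusted p = 0.61) and 2.61 ± 0.67 at 7M (adjusted p = 0.114) on the log2 scale. None passed the threshold over all genes by the quasi-likelihood test in the main setting, and each had the same sign in all settings tried. DESeq2 called *Lgr5* at 1M (1.99, adjusted p = 0.0957). At 7M it was called in 3 of 21 settings. These were the likelihood ratio test (2.62, adjusted p = 0.0154) and the quasi-likelihood test without a filter on low counts (2.61, adjusted p = 0.021) or without R&Z del replicate 4 (2.49, adjusted p = 0.0783). In all, 0 members were called at 3M and 0 at 7M by edgeR's quasi-likelihood test, where 0.226% and 0.451% of genes were called. At an unadjusted p under 0.05 the counts were 3 and 5 members, against 6.43% and 8.89% of genes, edgeR's likelihood ratio test called 0 and 3 members, and DESeq2 called 0 at 3M and gave no member an adjusted p at 7M.

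After PHx *Lgr5* read 6.74, 9.89 and 10.03 CPM in R&Z flox and 26.3, 34.3 and 34.5 CPM in R&Z del at 7 days, and 4.21, 5.70 and 11.3 CPM against 10.3, 36.4 and 78.6 CPM at 21 days. The lowest mutant at 21 days, replicate 2, which stands apart from its batch, lies within the control range. The log2 fold changes were 1.74 ± 0.61 at 7 days (SE, adjusted p = 0.609) and 1.83 ± 0.63 at 21 days (adjusted p = 0.395), or 2.29 at 21 days without that library. At 7 days 0 members were called by the quasi-likelihood test, where 0.274% of genes were called, 2 members had an unadjusted p under 0.05 (5.93% of genes did), the likelihood ratio test called 0 and DESeq2 called 1, *Znrf3*. Of all genes 6.80% and 7.41% were higher in each mutant library than in each control at 7 and 21 days, against 3 and 1 members.

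In CD the difference of *Lgr5* between the genotypes was small at 4 days and wide at 170 days. It read 2.34 and 3.53 CPM in R&Z flox and 4.76 and 4.99 CPM in R&Z del at 4 days, 2.80 CPM against 7.22 and 9.09 CPM at 50 days, and 1.73 and 2.32 CPM against 8.89 and 11.5 CPM at 170 days. The groups do not overlap at any of the 3 times, but neither did many others: of all genes 65.6%, 50.5% and 36.8% were higher in each mutant than in each control, against 7, 5 and 4 members. The log2 fold change was 0.24 ± 0.30 at 4 days (adjusted p = 0.598) and 1.29 ± 0.38 at 50 days (adjusted p = 0.101). At 170 days *Lgr5* rose by 2.13 ± 0.31 (SE, adjusted p = 0.0284), a call kept in 10 of 13 settings and lost without R&Z del replicate 2 (adjusted p = 0.235) or R&Z flox replicate 1 (adjusted p = 0.138). With *Znrf3* it made 2 members called at 170 days. At 50 days 0 members were called by the quasi-likelihood test, where 5.58% of genes were called, 2 had an unadjusted p under 0.05 (23.1% of genes did), and the likelihood ratio test and DESeq2 called 1 each.

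The rise of *Lgr5* was tested for a change over time. The difference between the genotypes was larger at 170 than at 4 days by 1.89 ± 0.42 (SE, adjusted p = 0.0476), where 6.92% of genes were called. It was smaller at 4 days than in undamaged livers of batch 1 by 1.46 ± 0.39 (adjusted p = 0.035), where 17.2% of genes were called. Within R&Z del livers *Lgr5* was lower at CD 4 days than without damage by 1.39 ± 0.35 (adjusted p = 0.0122), with 31.4% of genes called, whereas within R&Z flox livers the log2 change was 0.07 ± 0.29 (adjusted p = 0.926). The first of these was lost when any of 6 of the 8 libraries was left out, all but replicate 2 of R&Z flox at either time (adjusted p of 0.102 to 0.178 where lost), and the second without R&Z del replicate 2 (adjusted p = 0.128) or R&Z flox replicate 1 of CD 4 days (adjusted p = 0.156). At 170 days against 7M the change of the genotype effect was 0.11 ± 0.48 (adjusted p = 1). In the contrasts of CD 4 days with undamaged livers, R&Z del at 3M was 1 library, the female replicate 4 at 19.1 CPM, which could not be left out. Without the only other female of that model, R&Z flox 7M replicate 5, the interaction of *Lgr5* against undamaged livers became -2.07.

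These comparisons at CD 4 days depend on how libraries are scaled. With total counts in place of edgeR's TMM factors the median of all genes moved up by 0.51 on the log2 scale at 4 days, 0.25 at 50 days and 0.21 at 170 days, by 0.18 at 1M and by 0.11 at PHx 21 days, and by less than 0.1 elsewhere. The interactions of *Lgr5* then became 1.59 (adjusted p = 0.113) and -0.84 (adjusted p = 0.147), and the rise of *Znrf3* at 170 days had an adjusted p of 0.101. *Rnf43* and *Znrf3* at 4 days were called under either scaling.

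*Lgr4*, the R-spondin receptor found in most hepatocytes, leaned the other way. It read 23.9, 25.7, 54.8 and 66.3 CPM in R&Z flox and 20.02, 28.6, 29.9 and 33.5 CPM in R&Z del at 1M. At 7M R&Z flox read 19.0 and 21.7 CPM (batch 1) and 37.4, 56.0 and 77.3 CPM (batch 2), and R&Z del 10.7 and 13.1 CPM (batch 1) and 2.84, 11.0 and 33.4 CPM (batch 2). Within each batch the 7M values do not overlap, and at 1M they do. The share of all genes that separate within a batch at 7M was not counted. The log2 fold changes were -0.78 ± 0.49 at 1M (SE, adjusted p = 0.823), -1.15 ± 0.65 at 3M (adjusted p = 0.797) and -1.37 ± 0.46 at 7M (adjusted p = 0.325), below 0 in all settings tried and past the threshold in none.

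At 3M *Lgr4* read 15.9 and 22.4 CPM (batch 1) and 36.8, 58.6 and 69.8 CPM (batch 2) in R&Z flox, against 12.7 and 19.1 CPM in R&Z del. After PHx it read 14.5, 26.3 and 32.9 CPM in R&Z flox and 17.1, 22.3 and 25.7 CPM in R&Z del at 7 days, and 11.6, 15.98 and 46.0 CPM against 14.4, 20.01 and 27.02 CPM at 21 days, where the groups overlap. At CD 4 days it read 19.1 and 20.01 CPM in R&Z flox and 10.2 and 13.3 CPM in R&Z del. *Lgr4* fell there by 1.21 ± 0.27 (SE, adjusted p = 0.0174) on the log2 scale, a call kept in 9 of 11 settings. It was lost without R&Z del replicate 2 (-0.95, adjusted p = 0.12) and with total counts (-0.71, adjusted p = 0.0865, short of the fold limit).

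At the later times of recovery *Lgr4* passed no test. It read 17.2 CPM in R&Z flox and 13.9 and 19.3 CPM in R&Z del at 50 days, and 16.5 and 16.8 CPM against 11.2 and 19.0 CPM at 170 days. The log2 fold changes were -0.32 ± 0.32 (adjusted p = 0.575) and -0.35 ± 0.26 (adjusted p = 0.804). Of all genes, 9.74% were lower in each mutant than in each control at CD 4 days, where *Lgr4* was the 1 member of that kind, against 1.32%, 2.37% and 0.797% at 1M, 3M and 7M, where there was none.

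The ratio of *Lgr5* to *Lgr4* within a library does not depend on how libraries are scaled. Computed per kilobase, it lay between 0.111 and 0.299 in the 9 R&Z flox libraries of batch 1 and between 0.00353 and 0.788 in the 16 of batch 2, with medians of 0.151 and 0.227. In R&Z del livers it lay between 0.383 and 1.61 in the 9 libraries of batch 1 and between 0.410 and 7.99 in the 14 of batch 2, with medians of 0.651 and 1.70. *Lgr4* was the more abundant receptor in each of the 25 R&Z flox libraries, and *Lgr5* in 12 of 14 R&Z del libraries of batch 2 and 1 of 9 of batch 1. In 8 of 8 time points every mutant ratio was above every control ratio, a measure that was chosen after the values were seen and is given without a test.

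**Figure D2:**
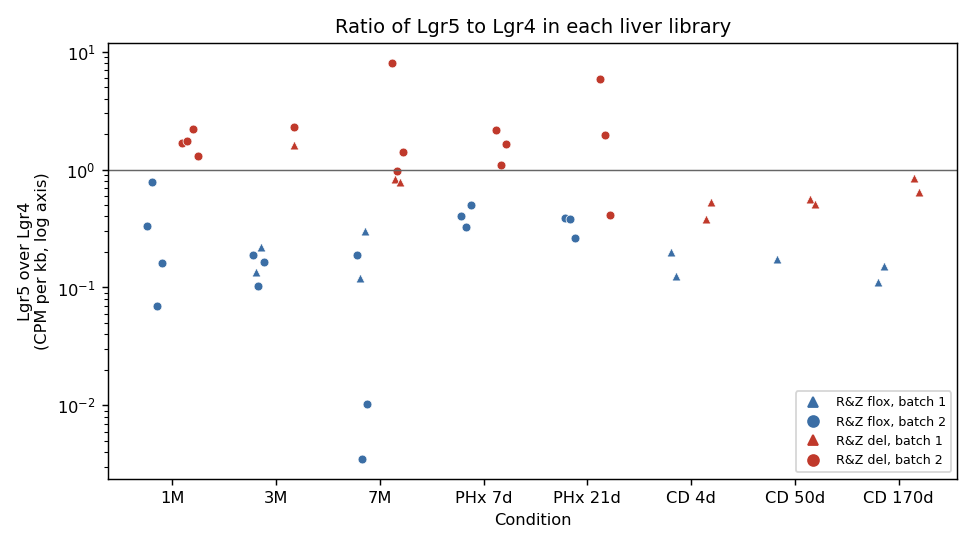
Ratio of *Lgr5* to *Lgr4* in CPM per kilobase for every library by time point, on a log axis, with R&Z flox in blue, R&Z del in red, batch 1 as triangles, batch 2 as circles and a line at a ratio of 1. The mutant libraries lie above the controls at each time point, with the lowest control value at 0.00353 in a 7M liver and the highest mutant value at 7.99 in a 7M liver.

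The Frizzleds, the WNT receptors that the ligases remove from the surface, gave no call between the genotypes in any of the 8 comparisons. Of all genes 15.2% were called at CD 4 days, 5.58% at CD 50 days and 0.226% to 0.625% at the other times. *Fzd4*, a receptor best known from endothelium, read 2.13 to 4.24 CPM in R&Z flox of batch 1 and 2.25 to 32.5 CPM in batch 2. It had no library at 0, and its log2 fold changes ran from -1.30 ± 0.87 at PHx 7 days to 0.84 ± 0.74 at 3M, with both signs. At PHx 7 days it read 12.6, 14.8 and 32.5 CPM in R&Z flox and 0.343, 11.9 and 13.9 CPM in R&Z del. The log2 fold change there became -0.734 without the lowest mutant library and -0.755 without the highest control library. At PHx 21 days the order was the reverse, with 5.61, 6.33 and 23.2 CPM in R&Z flox and 11.1, 35.5 and 38.7 CPM in R&Z del.

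*Fzd7*, a Frizzled of epithelial progenitors, was the most abundant of the 4 per kilobase in batch 1. At 1M it read 5.23 to 16.6 CPM in R&Z flox and 12.1 to 19.6 CPM in R&Z del, and its log2 fold changes in the 8 comparisons ran from -0.52 ± 0.53 at 7M to 0.70 ± 0.83 at PHx 21 days. At CD 4 days it read 6.99 and 9.11 CPM against 11.7 and 13.2 CPM, without overlap, as for 65.6% of all genes. Yet its fitted log2 fold change was 0.14 ± 0.35 once the shift of all genes had been taken out.

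*Fzd8* was few in counts and uneven after PHx. At 7 days it read 0.311, 0.710 and 3.05 CPM in R&Z flox and 3.03, 6.68 and 10.1 CPM in R&Z del, and at 21 days 0.282, 0.561 and 10.4 CPM against 7.63, 7.85 and 11.5 CPM. A single control overlaps the mutants each time. The log2 fold changes were 2.16 ± 1.15 at 7 days (SE, adjusted p = 0.841) and 1.04 ± 1.12 at 21 days (adjusted p = 0.873). Within R&Z del livers *Fzd8* was lower at CD 4 days than without damage by 1.19 ± 0.41 (adjusted p = 0.0422), as were *Lgr5* and *Lrp5*, with 31.4% of genes called in that comparison. The calls of these 3 genes within R&Z del livers were lost with total counts, and that of *Fzd8* also without either R&Z del library of CD 4 days (adjusted p of 0.139 and 0.112).

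*Fzd5* was the scarcest member. It read 0.794, 2.12 and 3.37 CPM in R&Z flox and 0.234, 0.286 and 6.30 CPM in R&Z del at PHx 7 days. At PHx 21 days it read 1.70, 1.82 and 4.74 CPM in R&Z flox and 0, 0.275 and 0.769 CPM in R&Z del. The mutant values are below the control values at 21 days without overlap, as were those of 3.24% of all genes, and the log2 fold change of -4.27 ± 2.36 (SE, adjusted p = 0.632) did not pass the test. At this depth, where 2 of the 3 mutant values rest on a handful of reads or none, the difference was not detectable.

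The co-receptors *Lrp5* and *Lrp6* signal from the same complex, and neither was called between the genotypes. *Lrp5* read 15.3, 21.4, 24.6 and 27.5 CPM in R&Z flox and 27.01, 40.6, 43.8 and 69.3 CPM in R&Z del at 1M, and the groups overlap narrowly. Its log2 fold changes were 0.84 ± 0.42 at 1M (SE, adjusted p = 0.661), 0.66 ± 0.52 at 3M and 0.65 ± 0.37 at 7M, above 0 in all settings tried. At CD 170 days it read 6.11 and 12.2 CPM in R&Z flox and 19.4 and 20.2 CPM in R&Z del, without overlap, as for 36.8% of all genes. Its log2 fold change there was 0.91 ± 0.34 (adjusted p = 0.443).

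At CD 4 days *Lrp5* read 12.7 and 14.9 CPM in R&Z flox and 8.72 and 15.8 CPM in R&Z del, and its log2 fold change of -0.68 ± 0.34 (adjusted p = 0.191) had the other sign. The genotype effect at CD 4 days was below that in undamaged livers of batch 1 by 1.55 ± 0.44 (SE, adjusted p = 0.0434), a call lost with total counts (-0.93, adjusted p = 0.201) and without R&Z del replicate 1 (adjusted p = 0.137) or R&Z flox replicate 1 or 2 (adjusted p of 0.106 and 0.114) of CD 4 days. Within R&Z del livers *Lrp5* was lower at CD 4 days than without damage by 1.23 ± 0.40 (adjusted p = 0.0335), which was lost without R&Z del replicate 1 of CD 4 days (-0.91, adjusted p = 0.154). At PHx 21 days the mutants read 5.32, 19.4 and 22.1 CPM, and the lowest of them, the replicate 2 that stands apart, moved the log2 fold change from -0.60 ± 0.54 with it to -0.13 without it.

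*Lrp6* read 23.3, 35.7, 37.5 and 40.4 CPM in R&Z flox and 27.2, 35.0, 38.7 and 47.3 CPM in R&Z del at 1M, at a log2 fold change of -0.06 ± 0.35 (adjusted p = 1). At 7M it read 19.7 and 22.97 CPM (batch 1) and 33.1, 45.0 and 76.7 CPM (batch 2) in R&Z flox, and 11.7 and 12.3 CPM (batch 1) and 16.4, 18.9 and 30.3 CPM (batch 2) in R&Z del. Within each batch every 7M mutant is below every control, whereas over both batches the groups overlap. The share of all genes that separate within a batch was not counted. The log2 fold change of -0.998 ± 0.32 (SE, adjusted p = 0.299) had the same sign in 21 of 21 settings and passed the threshold in none. At 3M the R&Z flox replicate 5 that stands apart read 97.9 CPM, and the log2 fold change was -0.85 ± 0.46 with it and -0.50 without it.

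**Figure D3:**
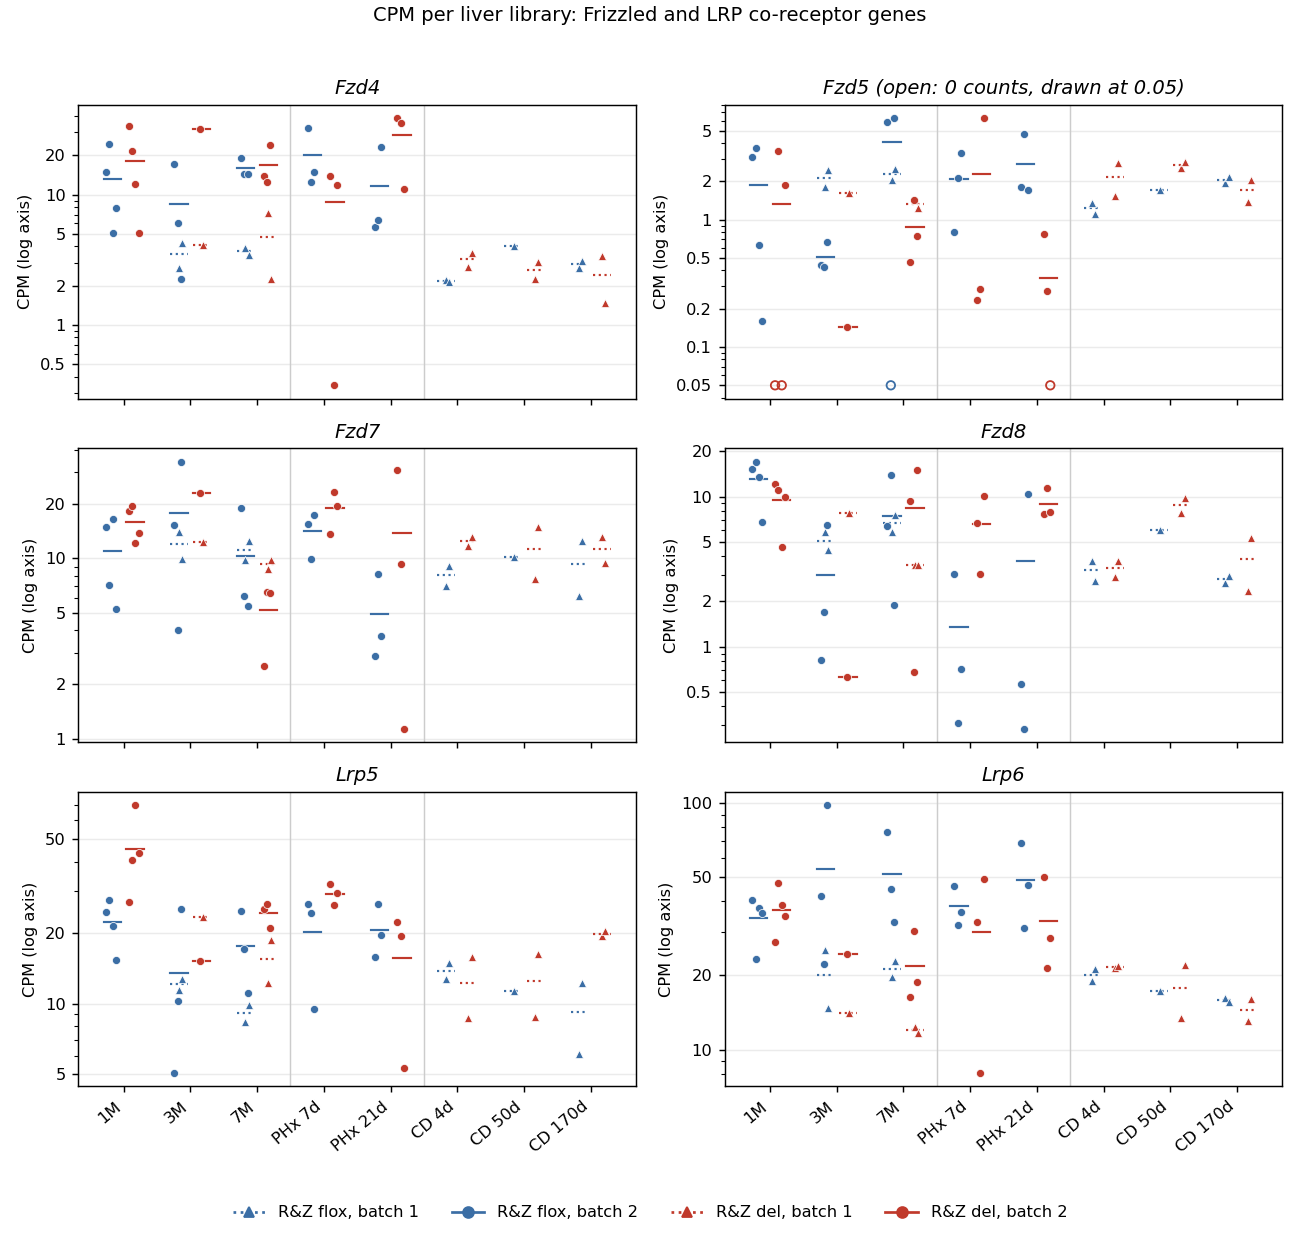
CPM of *Fzd4*, *Fzd5*, *Fzd7*, *Fzd8*, *Lrp5* and *Lrp6* in every library by time point, on a log axis, with R&Z flox in blue, R&Z del in red, batch 1 as triangles and batch 2 as circles; open symbols at 0.05 mark the libraries with 0 counts of *Fzd5*. The genotypes overlap for most genes and time points, and *Fzd5* is the lowest of the 6.

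**Figure D4:**
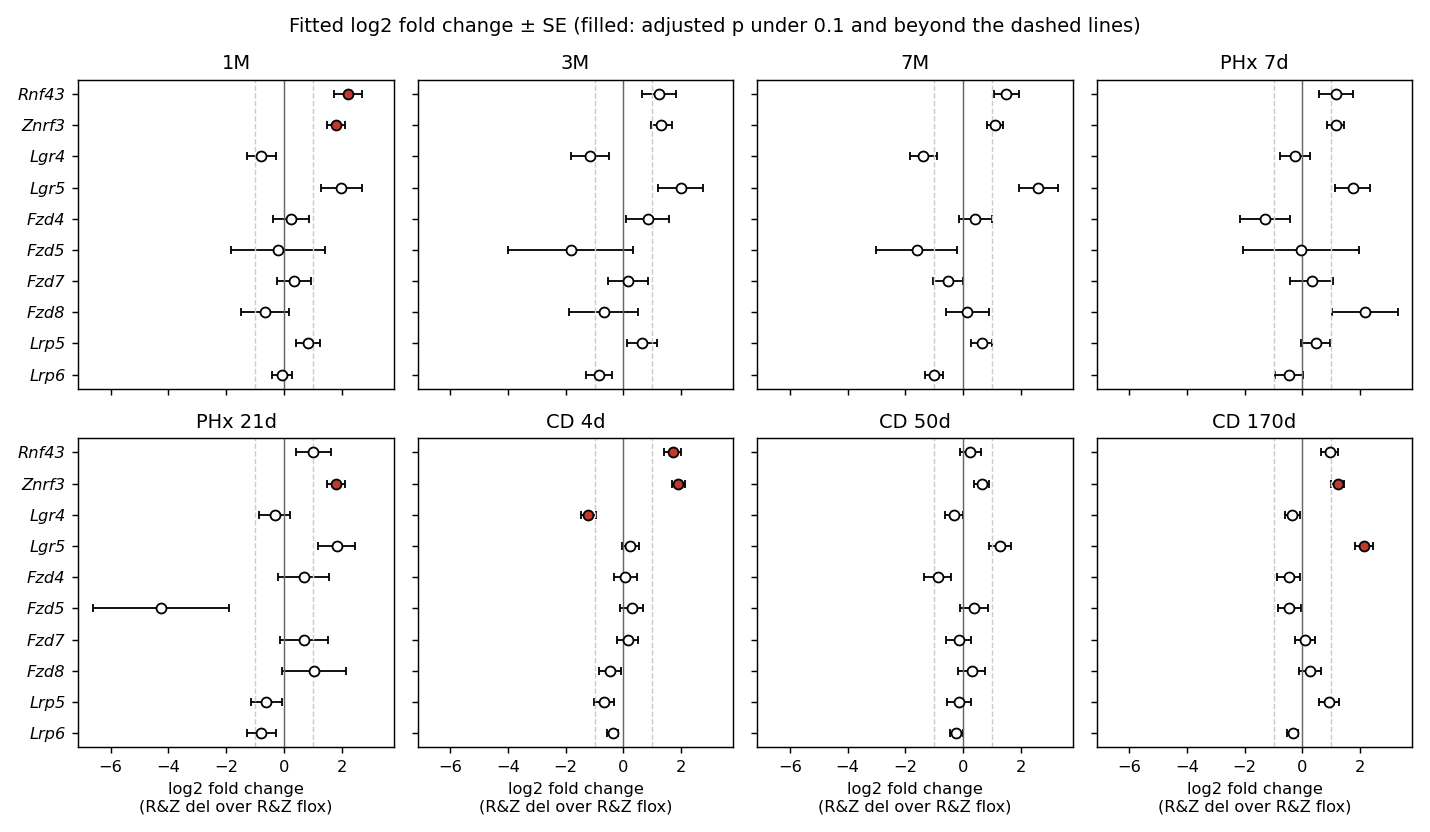
Log2 fold change between the genotypes (mutant over control) with its standard error for the 10 members in the 8 comparisons, filled where called, with dashed lines at 1 and -1. The 8 filled points are *Rnf43* at 1M and CD 4 days, *Znrf3* at 1M, PHx 21 days, CD 4 days and CD 170 days, *Lgr5* at CD 170 days and *Lgr4* at CD 4 days, the last of them below 0.

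Over all 10 members the median log2 fold change was 0.30, 0.41 and 0.29 at 1M, 3M and 7M, 0.39 and 0.69 at 7 and 21 days after PHx, and 0.10, 0.06 and 0.16 at 4, 50 and 170 days of CD. The median of all genes in the same comparisons lay between -0.09 and 0.06. Neither sex nor PHx within a genotype moved a member past the threshold: female minus male was 0.80 ± 0.26 for *Znrf3* (SE, adjusted p = 0.26), the member with the smallest p, in a comparison with 0.918% of genes called. After PHx against 1M 0.0235% of genes were called at 7 days and 0% at 21 days in R&Z flox livers, and 0.0157% and 0% in R&Z del livers.

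Likeness to either ligase was measured across libraries. By the lower of the Pearson correlations in batch 1 (18 libraries) and batch 2 (30 libraries), among 10955 genes, the genes most like *Rnf43* in log2 CPM were *Ccdc85b* (0.774 and 0.802), *Znrf3* (0.908 and 0.771), *Gstm2* (0.838 and 0.711), *1810058I24Rik* (0.707 and 0.732) and *Endod1* (0.78 and 0.697). Those most like *Znrf3* were *Lect2* (0.808 and 0.862), *Gstm2* (0.799 and 0.849), *Rnf43*, *Slc16a10* (0.741 and 0.79) and *Gulo* (0.74 and 0.792). For likeness to *Znrf3*, *Lgr5* ranked 6 (0.739 and 0.761) and *Lgr4* ranked 10811 (-0.539 and -0.333). For likeness to *Rnf43*, *Lgr5* ranked 37 (0.692 and 0.606) and *Lgr4* ranked 10908 (-0.676 and -0.378). The libraries of both genotypes were pooled for these correlations and differ in depth, so the values describe the pattern only. Within a genotype and batch, *Rnf43* and *Znrf3* gave r = 0.704 and rho = 0.717 in the 9 R&Z flox libraries of batch 1, and r = 0.158 and rho = 0.125 in the 14 R&Z del libraries of batch 2. Of 12 such relations the lowest adjusted p by permutation was 0.134.

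Among 13 direct or pericentral WNT targets, listed with earlier results of these data known, 4 rose in each of the 3 undamaged comparisons, of 13 tested, with medians of 1.603, 1.27 and 1.29 on the log2 scale. Of all genes 0.436%, 0.226% and 0.451% were called in either direction at 1M, 3M and 7M. *Glul*, the glutamine synthetase of the innermost pericentral hepatocytes, rose by 2.32 ± 0.36 (adjusted p = 0.00108), 2.91 ± 0.40 and 2.75 ± 0.34 at 1M, 3M and 7M. *Slc1a2*, a glutamate transporter of the same zone, rose by 2.46 ± 0.30, 2.47 ± 0.33 and 2.16 ± 0.27, and the pericentral cytochrome *Cyp2e1* by 1.05 ± 0.17, 1.27 ± 0.20 and 1.29 ± 0.15. *Cyp1a2* was called at 1M (1.25 ± 0.19) and the ammonium transporter *Rhbg* at 3M (3.40 ± 0.66) and 7M (2.17 ± 0.53).

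After PHx 0.274% of all genes at 7 days and 0.329% at 21 days were called in either direction. Among 12 targets 4 rose at 7 days and 2 at 21 days, with medians of 1.18 and 1.87. At 7 days these were *Glul* (1.39 ± 0.23), *Slc1a2* (1.40 ± 0.31), *Cyp1a2* (1.59 ± 0.24) and *Cyp2e1* (1.15 ± 0.22), and at 21 days *Glul* (2.51 ± 0.24) and *Slc1a2* (2.06 ± 0.33). At CD 4 days 8 of 12 rose, with a median of 1.25: the feedback genes *Axin2* (1.38 ± 0.49) and *Nkd1* (1.02 ± 0.37), the transcription factors *Sp5* (1.87 ± 0.34) and *Tcf7* (1.22 ± 0.35), the receptor *Tnfrsf19* (1.76 ± 0.28), the pericentral aminotransferase *Oat* (2.72 ± 0.24), *Rhbg* (1.27 ± 0.36) and *Slc1a2* (2.17 ± 0.33). *Glul* and *Cyp2e1* had log2 fold changes of 0.17 (adjusted p = 0.833) and -0.07 (adjusted p = 0.892) there. Of all genes 10.3% were called higher at CD 4 days. In either direction 15.2% were called at 4 days, 5.58% at 50 days and 0.625% at 170 days. At 50 days *Tnfrsf19* alone rose (1.37 ± 0.36), with a median of 0.56, and at 170 days *Tnfrsf19* (2.05 ± 0.29), *Oat* (1.48 ± 0.23) and *Rhbg* (2.24 ± 0.38) did, with a median of 1.30.

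Pericentral genes were also lower with damage within each genotype at CD 4 days. Compared with undamaged R&Z flox livers of batch 1, *Oat* was lower by 4.48 ± 0.46, *Slc1a2* by 4.38 ± 0.37, *Cyp2e1* by 2.25 ± 0.29, *Glul* by 1.70 ± 0.43 and *Sp5* by 1.13 ± 0.34, 5 of 12 targets, where 5.09% of all genes were called. In R&Z del livers, where 31.4% of all genes were called, 7 of 12 fell and *Tcf7* rose, *Glul* by 3.96 ± 0.56 in the first direction and *Tcf7* by 1.08 ± 0.38 in the other. *Znrf3* in R&Z flox livers was lower by 0.78 ± 0.21 (adjusted p = 0.0736), under the fold limit.

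The rest of the pathway gave few calls. In either direction 15.2%, 5.58% and 0.625% of all genes were called at CD 4, 50 and 170 days. Of 13 other WNT receptors 5 were tested, with medians between -1.19 and 0.27, and *Fzd1* (1.31 ± 0.35) and the WNT5A receptor *Ror1* (2.43 ± 0.42) rose at CD 4 days. Of 19 WNT ligands 4 to 6 were tested; *Wnt4* rose at CD 50 days (5.28 ± 1.04) and *Wnt5b* fell at CD 170 days by 2.16 ± 0.38. Of 14 secreted inhibitors 3 were tested, and *Dkk3* (2.33 ± 0.53) and *Frzb* (1.59 ± 0.58) rose at CD 4 days. Among the 11 intracellular transducers *Dvl2* rose at CD 4 days (1.23 ± 0.29), and none of the 4 R-spondins, of which 1 or 2 could be tested, or of the WNT secretion genes *Porcn* and *Wls* was called between the genotypes.

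Markers of other cells moved with some of these results, above all at CD 4 days. There 10.3% of all genes were called higher and 4.95% lower. The summed CPM of 8 cholangiocyte markers was 96.8 and 168 in R&Z flox and 3549 and 6322 in R&Z del at 4 days, with *Cftr* at 0 in both controls, and 6 of 7 tested rose, among them *Epcam* (6.56 ± 1.00), *Spp1* (4.94 ± 0.61), *Krt19* (4.56 ± 1.64), *Krt7* (4.24 ± 1.03) and *Sox9* (1.99 ± 0.54). Proliferation genes summed to 40.3 and 77.4 CPM against 228 and 236 CPM, with *Mki67*, *Top2a*, *Cdk1* and *Rrm2* called higher. Fibroblast markers summed to 207 and 311 CPM against 368 and 1011 CPM, with *Col1a1* and *Col3a1* called higher, and *Cd3g* of T cells rose. Endothelial *Lyve1* (-2.01 ± 0.56) and *Clec4g* (-1.54 ± 0.37) and macrophage *Cd5l* (-1.36 ± 0.51) and *Marco* (-2.75 ± 1.01) fell. In RNA of whole liver, fewer cells of a type and less RNA per cell cannot be told apart, and the part of these cells in the values of *Rnf43*, *Znrf3*, *Lgr4* and *Lgr5* at CD 4 days was not tested.

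At the other times such markers moved less. Of all genes 5.58% were called in either direction at CD 50 days and 0.625% at CD 170 days. At 1M, 3M, 7M and after PHx the shares were 0.226% to 0.451%. At CD 50 days cholangiocyte markers summed to 109 CPM in R&Z flox and 594 and 1156 CPM in R&Z del, and *Spp1*, *Col1a1*, *Cdk1* and *Birc5* rose and *Vsig4* of macrophages fell. At CD 170 days the same sums were 66.7 and 308 CPM against 257 and 370 CPM, and no marker was called. In undamaged livers they were 71.5 to 168 CPM in R&Z flox and 31.8 to 160 CPM in R&Z del, and *Alb*, the albumin of hepatocytes, fell by 1.45 ± 0.20, 1.14 ± 0.25 and 1.58 ± 0.18 at 1M, 3M and 7M. *Alb* also fell by 1.53 ± 0.25 and 1.09 ± 0.25 at 7 and 21 days after PHx and by 1.62 ± 0.48 at CD 50 days, *F9* fell by 1.01 ± 0.20 there, *Serpina1c* by 1.23 ± 0.35 at CD 4 days and the fibroblast gene *Dcn* by 1.88 ± 0.31 at PHx 7 days.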

How the data were processed

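Per the labels and the methods, the authors made Smart-Seq2 libraries of whole liver and sequenced single reads. The submitters' processing notes name Trim Galore (the methods name Sickle), alignment to mm10 with STAR 2.5.0a and counting with featureCounts (1.5.0-p1 and 1.5.0-p3). The deposited files hold the authors' raw counts of reads per gene symbol, not normalized, and the batch 1 headers show unstranded counting of exons, so overlapping genes share reads: 5.0% of the exon bases of *Rnf43* also belong to *1110028F11Rik*, and 9.17% of those of *Fzd4* to *Tmem135*. *Rnf43* also has exons on an alternative contig in the batch 1 annotation, so that its counts there could be too low.

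Of 55 samples in the labels, 53 had counts; 2 were not analysed here, and 5 libraries, whose titles and characteristics name different groups, entered no comparison. CPM levels are counts over the total of a library and are not scaled further. Tests were run in R 4.3.3 with edgeR 4.0.16 and its TMM factors on genes that exceeded 1 CPM in 3 or more libraries (6 in CD). One model held the 25 undamaged libraries with terms for group, sex and batch, another the 12 PHx and 8 undamaged 1M libraries with group and sex, another the 11 CD libraries with group. Damage was compared with no damage within the 18 libraries of batch 1, with group and sex, where 4 days of CD was set against the mean of 3M and 7M and 170 days against 7M. In batch 1 R&Z del at 3M was 1 library, a female. Standard errors are the log2 fold change over the square root of F. Tests were two-sided, and adjusted p-values are Benjamini-Hochberg values over all genes tested. Alternatives were DESeq2 1.42.0, the likelihood ratio test, other scalings and filters, each library left out in turn, batches and sexes apart, the replicate number as a block and other label readings. A replicate is 1 mouse, and p-values measure the spread between these samples only. Scripts were tested on simulated counts.

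The members and lists were chosen with earlier results of these data known. Of the lists, every gene called between the genotypes is named apart from an item that is not reported here, and of those called in other comparisons only some are; the likeness to *Rnf43* and *Znrf3* used log2 CPM with a prior count of 3, among genes with a mean CPM above 1 in each batch.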

Additional observations from a re-analysis of the deposited data

Results flagged for a closer look

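*Fzd4* in R&Z flox livers at 3M had 1 library far from the others, at 17.09 CPM with the next at 6.06 CPM. The gap was 0.744 of the whole range, above the limit of 0.71 for 5 samples, in 1 of 50 groups checked, where chance flags about 1 in 20. That rate holds for samples of 1 population, whereas these 5 libraries pool both batches. Over all R&Z flox libraries *Fzd4* had a mean of 0.861 CPM per kilobase in batch 1 and 3.75 in batch 2, so the flag cannot be read at that rate.

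The difference between R&Z del and R&Z flox was itself different between conditions for 2 members by the test of the interaction. For *Lgr5* it was larger at CD 170 days than at CD 4 days by 1.89 on the log2 scale (adjusted p = 0.0476), and smaller at CD 4 days than in undamaged livers, by -1.46 (adjusted p = 0.035). For *Lrp5* the difference at CD 4 days was below that of undamaged livers, by -1.55 (adjusted p = 0.0434). Each of these calls was lost with total counts as the scaling, and they rest on 2 libraries of each genotype at each time of damage. The calls against undamaged livers also rest on 1 R&Z del library at 3M, a female that could not be left out.

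Among 5 libraries of batch 1 that no comparison used, since their labels name different groups, 4 held a member above its highest R&Z flox value in batch 1 (18.5 CPM for *Rnf43*, 9.52 CPM for *Znrf3* and 6.03 CPM for *Lgr5*). The library titled KO_3M_2 had *Lgr5* at 7.97 CPM. The library titled KO_3M_3 had *Rnf43* at 41.6, *Znrf3* at 31.97 and *Lgr5* at 12.8 CPM. The library titled WT_7M_5 had these genes at 25.8, 17.9 and 11.4 CPM, and the library titled WT_CD_50d_2 at 36.5, 32.6 and 18.04 CPM. In the remaining one none of the 3 genes exceeded those values. The genotype of these libraries was not inferred from them.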

How the results depend on the processing

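In all, 646 values of single members under other settings kept direction and side of the threshold, 9 lost a call, 13 gained one and 22 reversed, and with single libraries left out these counts were 428, 11, 4 and 27. The cause of each change was not tested. Counts of calls, members first and all genes after, moved as follows. With DESeq2 Wald tests genes called were 302 at 1M, 134 at 3M, 92 at 7M, 213 and 437 at PHx 7 and 21 days, 1044 at CD 50 days and 291 at CD 170 days, with 3, 1, 2 and 1 members at 1M, PHx 7 days, PHx 21 days and CD 50 days, no adjusted p for a member at 7M, 1 for the change from CD 4 to 50 days and 2 from 4 to 170 days. DESeq2 size factors gave 1 member at CD 50 days and 2 for the change to 170 days. The likelihood ratio test gave 188, 60 and 88 genes at 1M, 3M and 7M, 71 and 127 after PHx and 1028 and 276 at CD 50 and 170 days, with 3 members at 7M, 1 at CD 50 days and 2 for either change from CD 4 days. Without a filter on low counts there were 121, 73 and 95 genes at 1M, 3M and 7M, 103 and 154 after PHx and 2956, 1671 and 600 in CD, 1 member at 7M, 1 at CD 50 days and 2 for either change, and *Fzd4* at CD 4 days was -0.028.

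Total counts, chosen after the data were seen, gave 2965 genes at CD 4 days and 224 at 50 days, 1 member at 170 days, 0 for the change from 4 to 170 days and 0 within R&Z del livers at CD 4 days. They reversed *Lrp6* at 1M (0.12), CD 4 days (0.13) and CD 50 days (0.034), *Fzd5* at PHx 7 days (0.12), *Fzd8* at CD 4 days (0.068), and *Fzd7* and *Lrp5* at CD 50 days (both 0.14). Batch 1 alone gave 5 genes at 3M and 14 at 7M and reversed *Fzd7* (-0.21) and *Fzd8* (0.37) at 3M and *Fzd8* at 7M (-0.80). Batch 2 alone gave 22 genes at 7M and 1 member at 1M. Male mice alone gave 14, 12 and 38 genes at 1M, 3M and 7M and 0 members at 1M, with *Fzd5* at 1M at 1.11 and *Fzd8* at 7M at -0.007. Without a sex term PHx 7 days had 22 genes and *Fzd8* at 3M was 0.003, and the PHx libraries alone gave 22 genes at 7 days. An adjusted p under 0.05 left 25 genes at CD 50 days and 30 with 1 member at 170 days. An unadjusted p under 0.05 gave 510 and 838 genes and 2 members each after PHx.

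Groups read from the characteristics gave 0 genes at CD 50 and 170 days and 0 members at 170 days, with *Rnf43* (-0.13), *Znrf3* (-0.12), *Lgr4* (0.14) and *Lrp6* (0.046) at 50 days and *Fzd7* (-0.13) at 170 days reversed. In undamaged livers, without a sex term, that reading gave 0 genes at 3M and 33 at 7M, with *Fzd8* at 7M at -0.027. The library titled WT_CD_50d_2, read as R&Z del 3M, gave 45 genes at 3M, and the 170-day R&Z flox libraries as further 50-day controls gave 1242 genes and 2 members at 50 days. Over 17 pairs of like replicate number the deviations from group means correlated between -0.36 and 0.273 (median -0.02), over 0.1 in 3. In groups of 2 libraries the deviations mirror each other, so both pairs of CD 4 days gave 0.273 and both of CD 170 days -0.36. This check cannot show that the samples were unpaired. With the replicate block *Fzd8* reversed at 3M (0.21) and 7M (-0.32), 23 genes were called at PHx 7 days, 1 member at CD 170 days and 2 for the change from 4 to 170 days. With the block crossed at 170 days, chosen after the data were seen, 1 member was called there.

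Leaving out 1 library at a time, genes called ranged from 34 to 48 at 1M, 10 to 31 at 3M, 38 to 204 at 7M, 19 to 57 and 29 to 74 at PHx 7 and 21 days, 775 to 1516, 4 to 671 and 7 to 362 at CD 4, 50 and 170 days. Members called ranged from 1 to 2 at 1M, 0 to 3 at 7M, 2 to 3 at CD 4 days, 0 to 3 at CD 170 days, 0 to 2 for the change from 4 to 170 days, 0 to 1 for that from 4 to 50 days, 0 to 2 for CD 4 days against no damage, and 1 to 4 and 0 to 1 within R&Z del and R&Z flox livers at CD 4 days. *Fzd4* ranged from -0.057 to 0.62 at 1M, -0.77 to 1.58 at 3M, -0.16 to 1.67 at PHx 21 days, -0.026 to 0.16 at CD 4 days and -1.21 to 0.005 at CD 170 days, and *Fzd5* from -1.60 to 0.39 at 1M, -3.03 to 0.49 at PHx 7 days and -0.10 to 0.60 at CD 4 days. *Fzd7* ranged from -0.68 to 0.66 at 3M, -0.017 to 0.32, -0.43 to 0.17 and -0.36 to 0.67 at CD 4, 50 and 170 days, and *Fzd8* from -2.72 to 0.57 at 3M, -0.60 to 0.81 at 7M and -0.46 to 0.72 at CD 170 days. *Lgr4* at PHx 21 days ranged from -0.66 to 0.53, *Lgr5* at CD 4 days from -0.045 to 0.59, *Lrp5* at CD 50 days from -0.38 to 0.14 and *Lrp6* at 1M from -0.22 to 0.071. The lone R&Z flox library of CD 50 days could not be left out, nor in batch 1 those of CD 50 days or R&Z del 3M replicate 4. At 2 to 5 mice per group, and for *Fzd5* and *Fzd8* with few reads in part of the batch 2 libraries, depth and number limit what could be seen.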
